A study of Homo sapiens with 12 samples.

Results

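The common gamma chain cytokine receptors were described here through 8 genes, IL2RA, IL2RB, IL2RG, IL4R, IL7R, IL9R, IL15RA and IL21R, taken by symbol from the array platform's annotation. All 8 were measured, out of 18417 named genes in the series. The cells were 4 established human lines, SUDHL-1, DEL, Karpas299 and SUPM2, which stem from anaplastic large cell lymphoma (ALCL), a tumour of T cells. All were grown in the same serum-containing medium to log phase, with no other treatment than the Hoechst 33342 stain used for sorting. From each line, side population (SP) cells, which pump out the dye, and main population (MP) cells, which keep it, were collected by flow cytometry. SUDHL-1 gave 3 SP and 3 MP arrays, and DEL, Karpas299 and SUPM2 gave 1 SP and 1 MP array each, 12 arrays in all. Nothing in the labels says that the arrays of a line came from separate cultures, so p-values measure the spread between these arrays, which may be technical. The questions put to these genes were how much of each receptor each line expressed, and whether SP and MP cells differed.

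Receptors of this family share the signalling chain encoded by IL2RG, which pairs with a cytokine-specific chain at the surface of lymphocytes. IL2RA (CD25) and IL15RA are binding chains without signalling ability of their own, and they raise the affinity for IL2 and IL15, while IL2RB is the signalling chain that both of these cytokines use. IL4R, IL7R, IL9R and IL21R each bind the cytokine of their name. The kinases JAK1 and JAK3 sit on the receptor tails and activate STAT factors, which in T cells drive growth, survival and differentiation. High CD25 is a known feature of ALCL cells.

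The widest difference between the lines was that of IL7R, and IL21R was the other receptor that differed among DEL, Karpas299 and SUPM2. For that reason the RefSeq windows around their start sites are shown, together with 1 of the 4 windows of IL15RA, the next widest in range. Each runs from 250 bases before to 50 bases after the start, on GRCh38.p14, at chr5:35856641-35856940 (plus strand), chr16:27427021-27427320 (plus strand) and chr10:5977997-5978296 (minus strand). Capitals mark matches, on either strand, to 5 motifs of transcription factor families. These were TTCNNNGAA for STAT factors, TGTGGT for RUNX factors, AGATAA for the zinc finger factors of the GATA family, TGANTCA for AP-1 and AGGAAG for ETS factors.
IL7R: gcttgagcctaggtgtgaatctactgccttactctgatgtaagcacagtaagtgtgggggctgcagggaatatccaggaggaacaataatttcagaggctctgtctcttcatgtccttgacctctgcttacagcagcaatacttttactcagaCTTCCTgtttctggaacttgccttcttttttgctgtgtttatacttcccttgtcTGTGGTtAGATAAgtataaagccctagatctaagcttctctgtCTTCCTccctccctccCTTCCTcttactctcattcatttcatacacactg
IL21R: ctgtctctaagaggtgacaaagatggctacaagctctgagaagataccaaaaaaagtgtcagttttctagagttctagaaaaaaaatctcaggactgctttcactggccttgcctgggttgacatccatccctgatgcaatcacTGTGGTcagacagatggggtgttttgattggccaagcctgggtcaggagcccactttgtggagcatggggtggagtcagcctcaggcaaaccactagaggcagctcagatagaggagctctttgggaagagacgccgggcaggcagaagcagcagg
IL15RA: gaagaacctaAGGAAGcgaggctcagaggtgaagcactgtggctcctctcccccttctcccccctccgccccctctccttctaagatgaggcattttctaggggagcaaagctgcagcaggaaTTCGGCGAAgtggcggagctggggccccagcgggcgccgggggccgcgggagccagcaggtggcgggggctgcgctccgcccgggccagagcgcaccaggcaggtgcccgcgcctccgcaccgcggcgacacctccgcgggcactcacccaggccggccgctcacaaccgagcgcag

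The IL7R window held 5 matches, of which the RUNX and GATA matches lay at positions 208 and 215 counted from the window's 5′ end, separated by a single base, and the other 3 were ETS matches. The IL21R window held 1 match, to RUNX, and the IL15RA window held 1 STAT and 1 ETS match. No other receptor window held a STAT match, so the IL15RA window shown is not typical of that gene's windows. Of all 35116 RefSeq windows of this length, 13.1% held the RUNX letters, 10.3% the GATA letters, 33.6% the ETS letters, 7.66% the STAT letters and 7.71% the AP-1 letters. Windows were found for 7 of the 8 receptors, 11 in all, and among the others IL2RA and IL4R held 1 ETS match each, the IL9R windows 1 RUNX, 1 GATA and 1 AP-1 match each, and the other 3 IL15RA windows 1 AP-1 match each, with 1 ETS match in the one farthest from the window shown. The IL15RA windows starting at 5977494 and 5977562 overlap, and their AP-1 match is the same stretch of bases. A match is a description of letters and not of binding.

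Values are log2 signals per probe set, so a difference of 1 is a 2-fold difference in signal. A probe set's brightness depends on its probes, so levels are compared between arrays for each gene and not between genes. The signal of a sorted sample does not separate fewer expressing cells from less RNA per cell. The median signal of an array lay between 4.83 and 5.0 for SUDHL-1, below the 5.24 to 5.35 of DEL, Karpas299 and SUPM2, and correlations over all genes were 0.855 to 0.908 between SUDHL-1 and the other lines against 0.923 to 0.952 among DEL, Karpas299 and SUPM2. The sources used here do not say whether SUDHL-1 was normalized together with the rest, so for SUDHL-1 the line and the way its arrays were made cannot be told apart. Within SUDHL-1, MP array 3 stood apart, with 124 genes at least 1 log2 unit above the other 5 arrays, where the remaining arrays had 16 to 42. Of genes at least 1 below the other 5, SP array 3 had 105, MP array 3 had 69 and the remaining arrays 7 to 24. Of 5 measured ALCL genes, GZMB, PRF1 and TIA1 were in the highest 25% of signals on 12 of 12 arrays, TNFRSF8 on 8 and MUC1 on 5. Of 12 T-cell genes 7 were so on any array, CD3D on 10, CD5 on 7, CD4 and CD247 on 4, CD7 on 3 and CD2 and ZAP70 on 2. CD3G and TRAT1 were in the lowest 25% on 12 arrays, CD3E on 9 and CD2 on 7. Of markers of other cell types, 0 of 5 B-cell genes and 0 of 3 erythroid and platelet genes reached the highest 25% on any array. In each of 3 other lists 1 gene did, which was CSF1R of 5 myeloid genes (6 arrays, those of DEL, Karpas299 and SUPM2), KRT18 of 6 stromal and epithelial genes (4 arrays) and KLRC1 of 5 natural killer cell genes (2 arrays), while MS4A1 (B cell), LYZ and MPO (myeloid) and EPCAM (epithelial) were in the lowest 25% on all 12.

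The lines were compared in 1 limma fit of the 12 arrays with line and population as terms. The moderated F-test called 6 of the 8 receptors at an adjusted p under 0.05 (IL2RA, IL2RB, IL7R, IL9R, IL15RA and IL21R), where 61.6% of all genes were called, so the receptors' count is near the background. IL4R and IL2RG were not called. Of the 48 combinations of 8 receptors with 6 pairs of lines, 18 were called. Pairs with SUDHL-1 accounted for 14 of them, against a background of 45% of genes called between SUDHL-1 and DEL, 48.5% against Karpas299 and 57.4% against SUPM2. On the deposited scale 24.7%, 24.6% and 25.9% of those genes were higher in SUDHL-1, and over all genes the median difference was -0.28, -0.31 and -0.37. The balance depended on the scaling, with 45.7%, 44.3% and 44.5% higher after quantile normalization and 55.9%, 52.8% and 56.3% with each array centred on its median. Among DEL, Karpas299 and SUPM2 the background was lower, with 5.2% of genes called between DEL and Karpas299, 8.34% between DEL and SUPM2 and 10.7% between Karpas299 and SUPM2, and there IL7R was called in all 3 pairs and IL21R in 1. These background counts, 958, 1536 and 1971 genes, were 444, 869 and 1255 in a fit of the 6 arrays of these lines, and as low as 428, 665 and 1051 with 1 array left out. Against SUDHL-1 they fell from 8280 to 4423 for DEL without its SP array and from 8934 to 5056 for Karpas299 without its MP array.

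**Figure D1:**
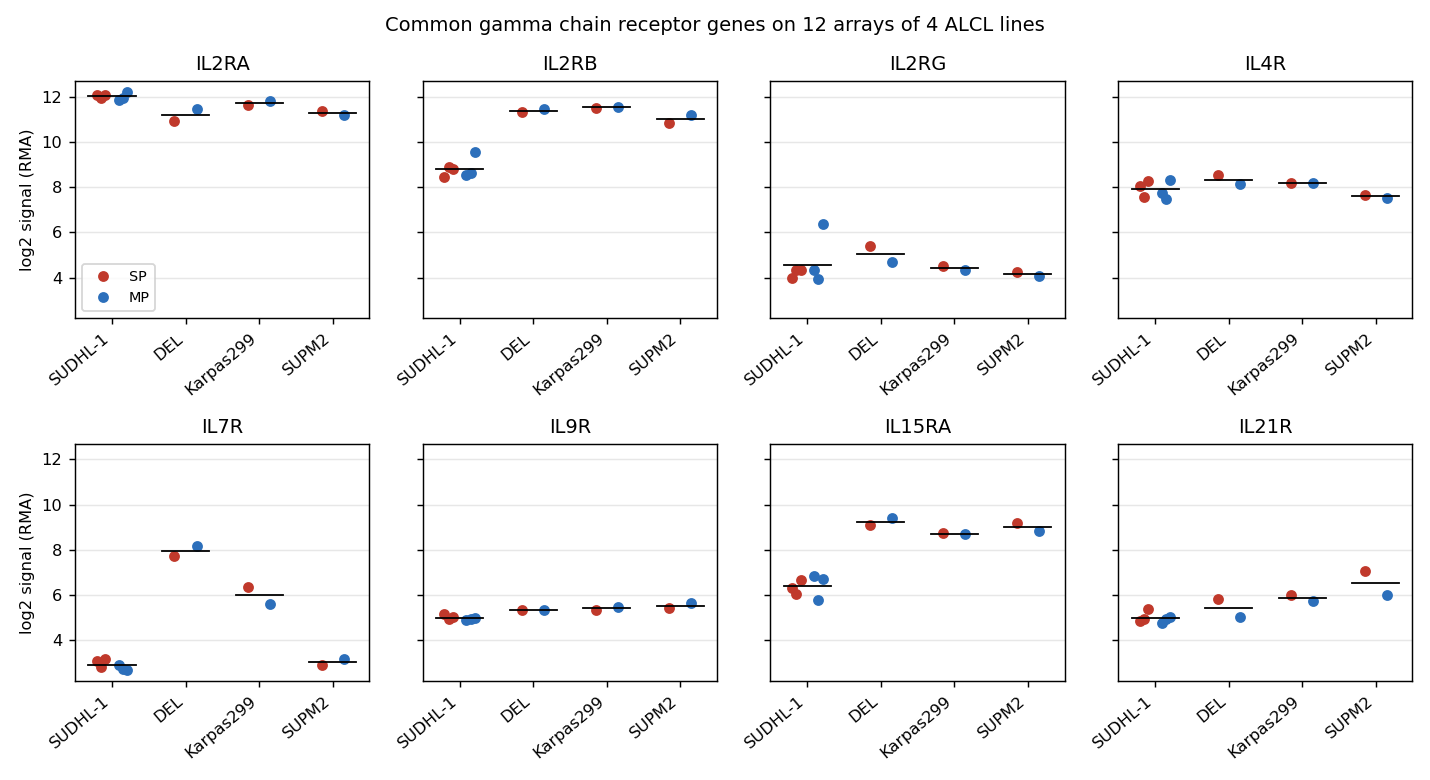
Log2 signal (vertical axis) of each receptor gene in the 4 lines (horizontal axis), with 1 point per array, SP in red and MP in blue, and a black bar at the line mean (the average of the SP and MP means). IL7R spans from 2.69 in SUDHL-1 to 8.19 in DEL, IL2RB and IL15RA are lower on every SUDHL-1 array than on any array of the other lines, and 1 SUDHL-1 MP array stands at 6.39 for IL2RG.

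IL7R, the alpha chain of the IL7 receptor, on which early lymphocytes and resting T cells depend, stood at 7.72 on the SP and 8.19 on the MP array of DEL. In Karpas299 it stood at 6.36 and 5.62, and in SUPM2 at 2.93 and 3.19. The SUDHL-1 arrays read 3.08, 2.81 and 3.16 in SP and 2.93, 2.76 and 2.69 in MP cells. DEL and Karpas299 thus lay above SUPM2 and SUDHL-1 without overlap, while the arrays of SUPM2 and SUDHL-1 overlapped and all 8 lay in the lowest 25% of signals. In Karpas299 IL7R was near the median gene, at percentile 59.4 on the SP and 47.4 on the MP array, against 79.3 and 83.9 in DEL. From the highest to the lowest line mean the difference was 5.05 on the log2 scale, a 33.2-fold difference in signal (limma F-test, adjusted p = 1.28e-07). DEL exceeded Karpas299 by 1.96 ± 0.27 (SE, adjusted p = 0.00144) and SUPM2 by 4.89 ± 0.27 (SE, adjusted p = 1.66e-06), and Karpas299 exceeded SUPM2 by 2.93 ± 0.27 (SE, adjusted p = 6.95e-05). SUPM2 and SUDHL-1, the lowest neighbours, did not differ beyond their spread (-0.16 ± 0.22 for SUDHL-1 minus SUPM2, adjusted p = 0.537). In a fit of the 6 arrays of DEL, Karpas299 and SUPM2 alone, the difference between DEL and Karpas299 was no longer called (adjusted p = 0.0554).

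The genes whose signal followed IL7R most closely over the 12 arrays were RRAD, a small GTPase of the RAS family (r = 0.983), SH2D1B, an adaptor of natural killer cell receptors (r = 0.983), and LAT, the adaptor that links the T-cell receptor to its downstream enzymes (r = 0.978). Over the 6 arrays without SUDHL-1 the coefficients were 0.990, 0.981 and 0.974. SH2D1B had line means of 8.39 in DEL, 6.47 in Karpas299, 3.48 in SUPM2 and 3.21 in SUDHL-1, the order of the IL7R means on the deposited scale. For IL7R the order of SUPM2 and SUDHL-1 was not resolved. SUPM2 was its lowest line after quantile normalization and with each array centred on its median. LAT ran from 7.99 in DEL through 7.37 in Karpas299 to 5.66 in SUPM2 and 5.46 in SUDHL-1. These coefficients describe 12 arrays that share 4 lines, and they were found by searching all genes. Of the 5 natural killer cell markers that were measured, the mean signal was 4.20 to 4.39 in DEL, 4.45 to 4.78 in Karpas299, 3.56 to 3.61 in SUPM2 and 3.10 to 3.32 in SUDHL-1. KLRC1 differed most between the lines, at 6.60, 7.65, 3.31 and 2.48 in that order, NCR1 stood at 6.33, 5.92, 5.37 and 5.92, and NCAM1, KLRD1 and KLRF1 lay in the lowest 25% of signals on all 12 arrays. The part of these genes in the IL7R pattern was not tested.

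IL21R, the receptor for the helper T-cell cytokine IL21, was highest in SUPM2, at 7.09 on the SP and 6.02 on the MP array. Karpas299 stood at 6.00 and 5.74 and DEL at 5.82 and 5.04, while the SUDHL-1 arrays ran from 4.77 to 5.38. The SP and MP arrays of SUPM2 differed by more than the line means of SUPM2 and Karpas299 did, so the order of neighbouring lines was not resolved: none of the 3 neighbouring pairs was called (adjusted p = 0.161 for Karpas299 minus SUPM2, 0.538 for DEL minus Karpas299 and 0.132 for SUDHL-1 minus DEL). The distance from SUPM2 to SUDHL-1 was 1.56 (F-test over the lines, adjusted p = 0.000789), and SUDHL-1 lay below SUPM2 and Karpas299 by called differences of -1.56 and -0.87. The difference from Karpas299 was no longer called after quantile normalization (-0.53, adjusted p = 0.117), with arrays centred on their medians (-0.54, adjusted p = 0.0881) or without the MP array of Karpas299 (-0.78, adjusted p = 0.102). DEL minus SUPM2 was -1.12 ± 0.27 (SE, adjusted p = 0.0310), and this call was lost in the fit without SUDHL-1 (adjusted p = 0.0782) and without 1 array at a time of DEL (-1.33 without SP, -0.90 without MP) or without the SP array of SUPM2 (-0.73). The genes most like IL21R were CCDC85A, ZNF205, a zinc finger gene, and AMHR2, the receptor of anti-Müllerian hormone, with r = 0.973, 0.972 and 0.967 over 12 arrays and 0.959, 0.970 and 0.990 without SUDHL-1.

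IL2RB, the chain that carries the signals of IL2 and IL15, stood at 11.32 and 11.44 on the SP and MP arrays of DEL, 11.48 and 11.55 in Karpas299, and 10.83 and 11.17 in SUPM2. The SUDHL-1 arrays read 8.43, 8.89 and 8.80 in SP and 8.55, 8.63 and 9.57 in MP cells. Every SUDHL-1 array lay below every array of the other lines, and the other 3 lines did not differ from their neighbours beyond the spread (adjusted p = 0.925 for DEL minus Karpas299 and 0.520 for DEL minus SUPM2). SUDHL-1 was lower by -2.57, -2.71 and -2.19 against DEL, Karpas299 and SUPM2, each with an SE of 0.25 (adjusted p = 2.14e-05, 1.50e-05 and 4.56e-05), where the median of all genes moved by -0.28 to -0.37. IL15RA, which presents IL15 to this chain, had the same shape, with 9.09 and 9.40 in DEL, 8.72 and 8.70 in Karpas299, 9.17 and 8.82 in SUPM2, and 5.80 to 6.83 on the 6 SUDHL-1 arrays. It was lower in SUDHL-1 by -2.85, -2.32 and -2.60 (SE 0.27 each, adjusted p = 1.83e-05, 7.01e-05 and 2.47e-05), and its neighbours among the other lines were not called (adjusted p = 0.712 and 0.693). After quantile normalization the distance of SUDHL-1 from the highest line was -2.74 for IL2RB and -2.73 for IL15RA. With each array centred on its median it was smaller, at -2.37 and -2.51. The smallest centred differences were then -1.78 for IL2RB, against SUPM2, and -1.98 for IL15RA, against Karpas299. The size of these differences thus depended on the scaling.

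Over the 12 arrays IL2RB and IL15RA had r = 0.946 with each other, the highest of the 28 pairs of receptors, over arrays that share 4 lines. Both were lowest in SUDHL-1, and the coefficient of this pair without SUDHL-1 was not computed. Among DEL, Karpas299 and SUPM2, Karpas299 had the highest IL2RB mean (11.52) but the lowest IL15RA mean (8.71). No difference of either gene among these lines was called. The genes most like IL2RB were CERK, which phosphorylates ceramide (r = 0.994), TRAM2 (r = 0.987) and CA12, a carbonic anhydrase (r = 0.986), and those most like IL15RA were MPC1L (r = 0.987), the scaffold gene AHNAK (r = 0.986) and IQGAP3 (r = 0.985). Without SUDHL-1 these fell to 0.852, 0.677 and 0.709 for IL2RB and to 0.714, 0.312 and 0.833 for IL15RA. The likeness therefore rested on SUDHL-1 to a larger degree than that of IL7R and IL21R.

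**Figure D2:**
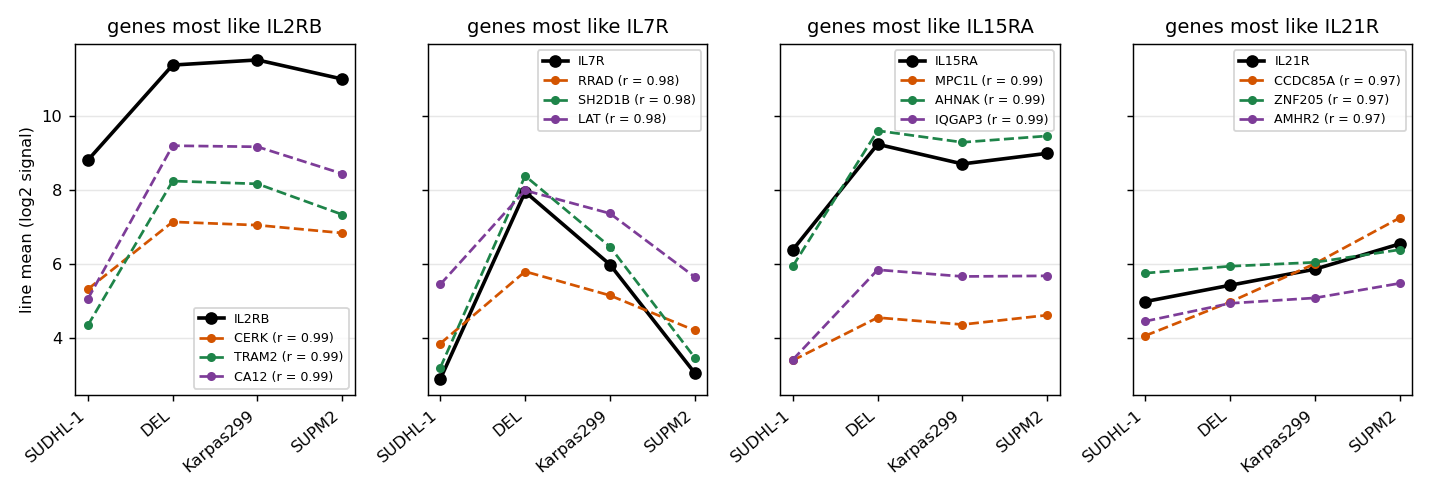
Line means of log2 signal (vertical axis) in the 4 lines (horizontal axis) for the 4 receptors whose line means differ by at least 1, in black, and for the 3 genes with the highest Pearson correlation to each over 12 arrays, dashed. SH2D1B and LAT follow IL7R down from DEL to SUDHL-1, while the genes beside IL2RB and IL15RA share the low SUDHL-1 mean.

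IL2RA was the receptor gene that was highest in SUDHL-1, and it lay in the highest 25% of signals on 12 of 12 arrays. Its SUDHL-1 arrays read 12.05, 11.96 and 12.05 in SP and 11.84, 11.94 and 12.21 in MP cells, against 10.91 and 11.45 in DEL, 11.61 and 11.79 in Karpas299 and 11.38 and 11.20 in SUPM2. All 6 SUDHL-1 arrays lay above the 6 others. SUDHL-1 exceeded DEL by 0.83 ± 0.17 (SE, adjusted p = 0.00239) and SUPM2 by 0.72 ± 0.17 (SE, adjusted p = 0.00388), against a median of all genes on the other side of 0. These 2 differences were 1.17 and 1.13 with each array centred on its median, and 0.81 and 0.67 after quantile normalization. The difference from Karpas299 was 0.31 ± 0.17 (adjusted p = 0.144). The call against DEL was lost without the SP array of DEL (0.55) and that against SUPM2 without the MP array of SUPM2 (0.57). Along the order SUDHL-1, Karpas299, SUPM2, DEL no neighbouring pair was called.

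IL4R, which binds IL4 and, with IL13RA1, also IL13, was not called between any lines and lay in the highest 25% of signals on all 12 arrays. Its values were 8.55 and 8.12 in DEL, 8.18 and 8.17 in Karpas299, 7.66 and 7.54 in SUPM2, and 7.47 to 8.33 in SUDHL-1. The range of line means was 0.73 (F-test, adjusted p = 0.145), and 0 of 6 pairs was called. IL9R, the receptor of a mast cell and T-cell growth factor, lay below the array's median gene on all 12 arrays and spanned only 4.92 to 5.63. The gene lies at the tip of both sex chromosomes (chrX:155997696-156013020 on GRCh38.p14), its 2 probe sets carried identical values and were counted once, and RefSeq lists 6 IL9R pseudogenes that could share its probes. Its low SUDHL-1 mean (5.002 against 5.34 to 5.54) was called by the F-test (adjusted p = 0.0102), but the call was lost after quantile normalization (adjusted p = 0.710) and with each array centred on its median (0.730).

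IL2RG, the common chain itself, gave a low signal, below the median gene on 11 of 12 arrays. It stood at 5.39 and 4.71 in DEL, 4.50 and 4.35 in Karpas299 and 4.24 and 4.08 in SUPM2. The SUDHL-1 arrays read 3.97, 4.35 and 4.34 in SP and 4.35, 3.96 and 6.39 in MP cells, so MP array 3 lay 2.04 above the next SUDHL-1 array and above every other array of the series. On the same array IL2RB lay 0.67 above the next, and IL2RG was the only receptor at least 1 above the other 5. The range of line means was 0.89 (F-test, adjusted p = 0.640). Without MP array 3 the same range was called (adjusted p = 0.0135), with DEL highest and SUPM2 lowest. The range also rested on the DEL arrays, at 0.40 without the SP array, with SUDHL-1 then highest (adjusted p = 0.914), and at 1.40 without the MP array (adjusted p = 0.496).

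The second question was whether SP and MP cells differed. Within SUDHL-1, limma called 0 of the 8 receptors, as it did 0% of all genes (577 genes had an unadjusted p under 0.05, none of them a receptor). For no receptor did the 3 SP values lie wholly above or below the 3 MP values, a separation seen for 7.16% of all genes. Of the 8 receptors, 5 were higher in SP cells, with a median difference of 0.06 against -0.00024 over all genes. IL2RG had the largest difference, with 4.22 ± 0.22 for the SP and 4.90 ± 1.30 for the MP arrays (SD, n = 3 each), which is -0.68 with MP array 3 and 0.07 without it. IL7R stood at 3.01 ± 0.18 and 2.79 ± 0.12, a difference of 0.23, and IL2RB at 8.71 ± 0.24 and 8.91 ± 0.57, a difference of -0.21 that became 0.12 without MP array 3. The differences of IL21R, IL4R, IL9R, IL2RA and IL15RA were 0.14, 0.12, 0.10, 0.02 and -0.11, with SE of 0.18, 0.27, 0.14, 0.15 and 0.30 (limma, adjusted p = 1.00 for all 8). Leaving out 1 array turned the sign for IL15RA (0.04 without SP array 2, 0.09 without MP array 1, 0.02 without MP array 3) and IL4R (-0.03 without SP array 3, -0.07 without MP array 2). It also did so for IL21R (-0.02 without SP array 3) and IL2RA (-0.05 without MP array 1, -0.003 without MP array 2).

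**Figure D3:**
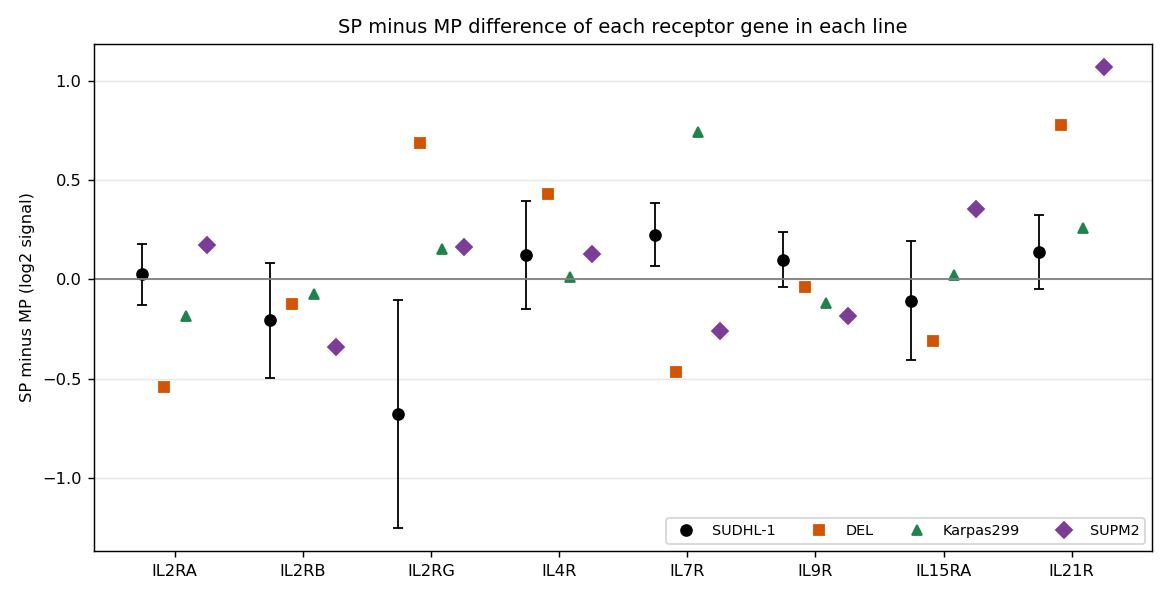
SP minus MP difference in log2 signal (vertical axis) of each receptor gene (horizontal axis) in each line; black circles are SUDHL-1 (3 arrays a group) with bars of 1 SE from limma, and the coloured points are DEL, Karpas299 and SUPM2, with 1 array a group and no error. IL21R lies above 0 in all 4 lines, from 0.14 to 1.07, and IL2RB lies below 0 in all 4.

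With 1 difference per line, limma again called 0 of the 8 receptors and 0% of all genes (904 genes had an unadjusted p under 0.05). IL21R was the receptor with the smallest p. Its SP minus MP difference was 0.78 in DEL, 0.26 in Karpas299, 1.07 in SUPM2 and 0.14 in SUDHL-1, an average of 0.56 ± 0.44 (SD, n = 4 lines, limma unadjusted p = 0.0208, adjusted p = 0.918), higher in SP cells in 4 of 4 lines. IL4R was also higher in 4 of 4 lines, by 0.43, 0.01, 0.13 and 0.12 in DEL, Karpas299, SUPM2 and SUDHL-1, and IL2RB was lower in 4 of 4, by -0.12, -0.07, -0.34 and -0.21. These 3 of 8 receptors had 1 sign in all lines, as had 13.7% of all genes, and in SUDHL-1 the signs of all 3 turned when 1 array was left out.

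The other receptors did not keep a sign. IL7R was lower in SP cells of DEL by -0.47 and higher in those of Karpas299 by 0.74, the lines with more of its signal. IL2RA was -0.54 in DEL, -0.18 in Karpas299, 0.17 in SUPM2 and 0.02 in SUDHL-1. IL2RG was 0.69 in DEL, 0.16 in both Karpas299 and SUPM2 and -0.68 in SUDHL-1. IL15RA ran from -0.31 in DEL to 0.35 in SUPM2, and IL9R from -0.19 in SUPM2 to 0.10 in SUDHL-1. Each value of DEL, Karpas299 and SUPM2 rests on 1 array per population and has no replicate check. Differences over 1 were rare among all genes, at 2.44% in DEL, 3.20% in Karpas299 and 6.59% in SUPM2, and IL21R in SUPM2 was the only receptor value of this size. Whether SUDHL-1 differed from the other lines in its SP minus MP difference was tested as an interaction, which called 0 of 8 receptors and 0% of all genes (limma; 661 genes and no receptor had an unadjusted p under 0.05). The largest interaction estimates were -1.01 ± 0.72 for IL2RG and -0.56 ± 0.28 for IL21R (SE, adjusted p = 1.00).

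The cytokines that these receptors bind, and the kinases and STAT factors below them, were taken as lists with the receptors. Of 5 measured ligand genes the F-test called 4 between lines (61.6% of all genes), with IL7 widest. IL7 had line means of 6.76 in DEL, 6.81 in Karpas299 and 6.44 in SUPM2 but 2.59 in SUDHL-1 (adjusted p = 8.25e-07). The signals of IL7 and IL7R were thus both higher in DEL and Karpas299 than in SUDHL-1, while SUPM2 had IL7 signal without that of IL7R. IL15 was highest in SUPM2, at 5.05 against 3.87 to 4.16 (adjusted p = 0.0104), IL21 in Karpas299, at 4.06 against 3.12 to 3.51 (adjusted p = 0.0144), and IL4 ran only from 2.67 to 3.20 (adjusted p = 0.0237). In SP against MP cells none was called in SUDHL-1 or over the lines. IL15 and IL2 had the smallest p in SUDHL-1, at -0.38 and -0.24, and IL7 and IL2 over the lines, at -0.49 and 0.08.

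Of 9 measured kinase and STAT genes, 8 were called between lines (61.6% of all genes), 6 of them with their lowest mean in SUDHL-1. A low SUDHL-1 mean was common among all genes on the deposited scale. Of those called against DEL, Karpas299 and SUPM2, only 24.7%, 24.6% and 25.9% were higher in SUDHL-1. JAK3, the kinase bound by the common gamma chain, stood at 6.25 in SUDHL-1 and 7.79, 8.28 and 8.53 in DEL, Karpas299 and SUPM2 (adjusted p = 8.15e-06). STAT5A, a factor below IL2 and IL7, was highest in Karpas299 with 6.36, followed by DEL with 5.21, SUPM2 with 5.003 and SUDHL-1 with 4.24 (adjusted p = 1.09e-05). STAT5B was also highest in Karpas299, with 9.41, but SUDHL-1 came next with 8.69, above DEL with 8.34 and SUPM2 with 8.19 (adjusted p = 0.0168). STAT4 was highest in Karpas299 with 6.34 and lowest in SUDHL-1 with 3.57 (adjusted p = 3.95e-05). STAT3, which acts below IL21 and the ALK fusion, was instead highest in SUDHL-1, at 11.51, against 10.06 in DEL, 10.70 in Karpas299 and 9.80 in SUPM2 (adjusted p = 1.73e-05). In SP against MP cells limma called none of the 9 in SUDHL-1 or over the lines. In SUDHL-1, 1 of 9 was higher in SP cells, with a median of -0.19 (49.9% of all genes were higher), and STAT4 and JAK2 had the smallest p, at -0.63 and -0.51. Over the lines, 1 of 9 averaged above 0, with a median of -0.20 (55.6% of all genes did), and TYK2 and STAT6 had the smallest p, at -0.55 ± 0.52 and -0.29 ± 0.16 (SD, n = 4 lines, limma adjusted p = 0.918 for both), each lower in SP cells in 4 of 4 lines. The SUDHL-1 arrays enter both comparisons, so the 2 counts are not independent.

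Among 9 measured feedback and phosphatase genes, 5 were called between lines (61.6% of all genes). SOCS2, an inhibitor induced by STAT5, stood at 3.27 in SUDHL-1 and 4.80 to 5.33 elsewhere (adjusted p = 5.50e-06), and PTPN6, the phosphatase SHP-1, at 4.81 in SUDHL-1 against 5.79 to 6.69 in the rest (adjusted p = 7.18e-06). PTPN11 ran from 8.33 in SUPM2 to 9.80 in DEL (adjusted p = 0.00150) and SOCS3 from 8.65 in SUDHL-1 to 9.76 in DEL (adjusted p = 0.00258). In SP against MP cells none was called. SOCS2 and PTPN1 had the smallest p in SUDHL-1, at -0.33 and 0.22, and PTPN6 and PTPN2 over the lines, at 0.48 and 0.46, with PTPN6 higher in SP cells in 4 of 4 lines.

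**Figure D4:**
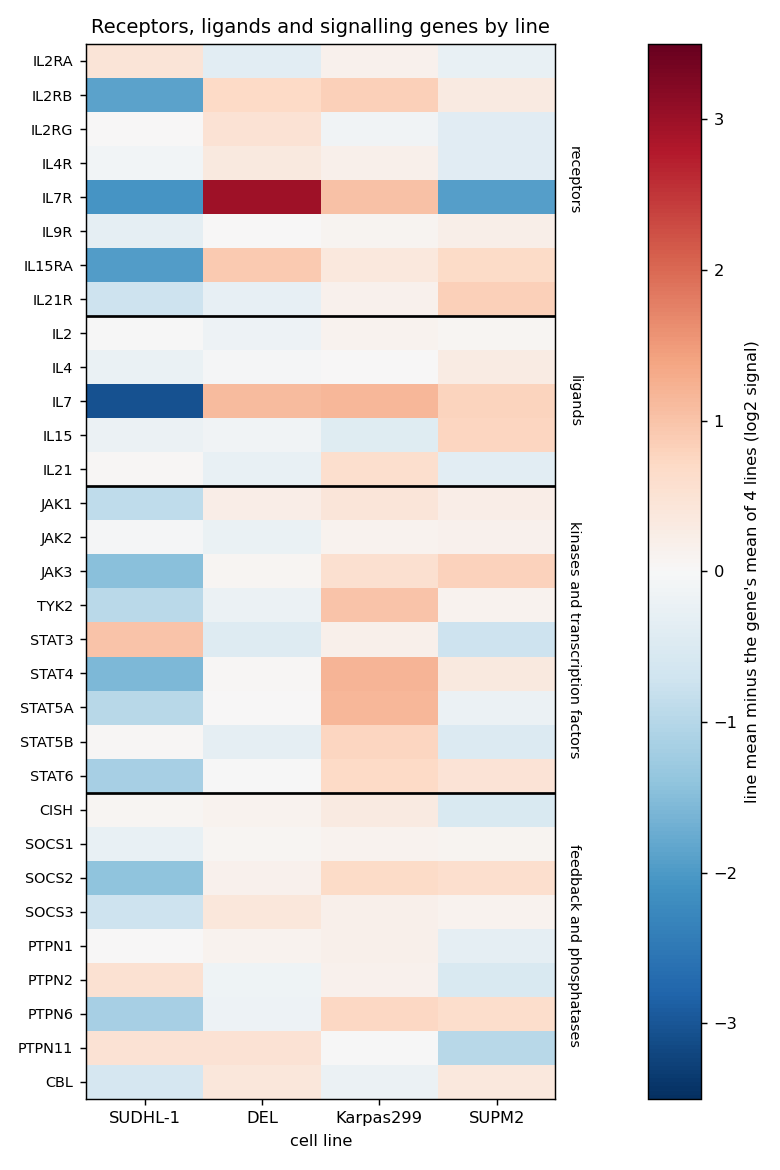
Line means (columns) of the receptors, ligands, kinases and STAT factors, and feedback genes (rows), each shown in colour as its difference in log2 signal from that gene's mean of the 4 lines, red for higher and blue for lower. IL7R is red in DEL (7.96) and blue in SUDHL-1 (2.90) and SUPM2 (3.06), and SUDHL-1 is the bluest column for IL2RB, IL15RA, IL7, JAK3 and STAT4.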

How the data were processed

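Gene expression was measured on 12 Affymetrix arrays of sorted SP and MP cells. The authors deposited 1 log2 signal per probe set and array, for which the submitters' processing notes name RMA with no version, a method that subtracts background, equalises the arrays' distributions and summarises each probe set. All 12 columns were used as deposited. Of 33297 probe sets, 19460 had 1 gene symbol in the platform annotation, 1754 had several and 12083 none. Where a gene had several, the one with the highest mean stood for it, leaving 18417 genes with no filter on signal. RefSeq (GRCh38.p14) matched 19429 of the 19460 by Entrez identifier. Arrays carry no read depth, and their number limits the precision.

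limma 3.58.1 (R 4.3.3; lmFit and eBayes) was fitted over all genes. The fits were SP minus MP in SUDHL-1 (4 residual degrees of freedom), 1 SP minus MP difference per line against 0 (3), line with population on 12 arrays (7), and the SP minus MP difference of SUDHL-1 less that of the rest. P-values are two-sided and Benjamini-Hochberg adjusted within each contrast, at a threshold of 0.05. Genes named were the 8 receptors, up to 4 called members (or the 2 of smallest p) of each list, and the 3 genes of highest Pearson correlation with each receptor whose line means spanned at least 1. STAT5B was named beside STAT5A outside this rule. Receptors and lists were chosen with earlier results of these data known. Alternatives changed normalization, centring, dim genes, probe sets, variance, the replicate block, the samples in the fit, the range asked for, and the arrays left out. The 2 SP minus MP fits and the interaction were run on data made with known differences. Of the fit of lines, only DEL minus Karpas299 was run so, and the F-test was not. The shares of differences recovered are not given here, so the power of these fits is not stated.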

Additional observations from a re-analysis of the deposited data

How the results depend on the processing

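No receptor was called between SP and MP cells under any alternative run, and limma called 0 genes there in each of them, with the replicate block included. With the replicate number as a block, 0 genes were called in SUDHL-1. The numbers gave no sign of pairing, since same-numbered SP and MP arrays deviated from their group means with correlations of -0.0037, -0.0774 and -0.132, and no SP array correlated best with its own number. Over the lines, 11342 genes were called, and 6710 when a range of at least 1 was asked for as well. Of the 18 called receptor differences between lines, 293 of 310 recomputed values kept the call and direction, 17 lost the call and 0 reversed, the losses touching IL9R, IL21R, IL2RA and the IL7R difference between DEL and Karpas299. Many alternatives could not move a difference itself. Averaged probe sets, dim genes left out, trended variance and arrays left out of a line outside the pair changed only p-values. The share kept is therefore no measure of how firm the calls are. The IL9R differences of SUDHL-1 from Karpas299 and SUPM2 went from -0.42 and -0.54 to -0.08 and -0.13 after quantile normalization.

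Signs of uncalled SP minus MP differences turned as follows, and the cause was not tested. In SUDHL-1, centring gave -0.0115 for IL2RA. With 1 array left out, the SUDHL-1 difference ran from -0.0540 to 0.13 for IL2RA, -0.39 to 0.12 for IL2RB, -1.15 to 0.0672 for IL2RG, -0.0654 to 0.37 for IL4R, -0.43 to 0.0858 for IL15RA and -0.0211 to 0.25 for IL21R. Over the lines it ran from -0.0352 to 0.27 for IL2RG and -0.0907 to 0.0383 for IL15RA, and the interaction from -0.21 to 0.30 for IL2RB, -0.26 to 0.18 for IL4R and -0.45 to 0.0633 for IL15RA. Over the lines, 1 fit of all 12 arrays gave -0.17 for IL2RG, leaving out DEL gave 0.0045 for IL2RA, -0.12 for IL2RG and 0.0901 for IL15RA, leaving out Karpas299 gave -0.17 for IL7R, and leaving out SUDHL-1 gave 0.0225 for IL15RA.

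IL7R lay in the lowest 25% of signals on all 8 arrays of SUPM2 and SUDHL-1, and IL2RG on 4 of 12, so low signal limits these values.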

Other observations

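Genes known as targets of these receptors also differed between lines, with 13 of 14 called by limma's F-test (61.6% of all genes). The called targets include IL2RA, which was already counted among the receptors. CCND3, a cyclin of the G1 phase, was lowest in SUDHL-1 with 8.25 and highest in Karpas299 with 10.59 (adjusted p = 8.06e-06), and PIM2, a survival kinase, ran from 5.48 in SUDHL-1 to 9.53 in SUPM2 (adjusted p = 1.49e-05). GZMB, the cytotoxic protease granzyme B, was higher in Karpas299 (11.56) and SUPM2 (11.89) than in DEL (9.77) and SUDHL-1 (10.05), with an adjusted p of 2.49e-05, and MYC was lowest in SUPM2, at 8.07 against 9.62 to 10.46 (adjusted p = 0.000232). In SP against MP cells 0 of the 14 were called, with 7 of 14 higher in SUDHL-1 and 8 of 14 over the lines, where BCL6 (-0.64) and FOXP3 (0.35) had the smallest unadjusted p in SUDHL-1 and BCL2 (-0.26, lower in 4 of 4) and CCND2 (0.22) over the lines.

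Of 11 partner chains of related receptors, 7 were called between lines (61.6% of all genes), and 6 of them were lowest in SUDHL-1. IL27RA stood at 4.98 in SUDHL-1 and 6.51 to 7.14 elsewhere (adjusted p = 3.06e-05), IL13RA1, the second chain of the IL13 receptor, at 7.35 against 8.37 to 9.61 (adjusted p = 0.000152), IL10RA at 4.65 and 4.70 in SUDHL-1 and DEL but 6.33 and 5.81 in Karpas299 and SUPM2 (adjusted p = 0.000358), and IL3RA at 2.99 against 3.93 to 4.47 (adjusted p = 0.000622). Of 7 adaptors 5 were called (61.6% of all genes), with GRB2 at 8.26 in SUDHL-1 and 9.83 to 10.18 elsewhere (adjusted p = 4.84e-06). IRS2, PIK3CD and GAB2 were also lowest in SUDHL-1, and GAB2 was highest in SUPM2 (8.24). The part of the lower array level of SUDHL-1 in these values was not tested. Neither list had a gene called between SP and MP cells.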
